A study of Mus musculus with 3 samples.

Results

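The platelet and megakaryocyte genes examined in HSC chromatin were 10 of the 21755 protein-coding genes of chromosomes 1 to 19 and X. They were named by function, with earlier results of these data known. They are Itga2b and Gp6, receptors for fibrinogen and for collagen, the chemokine genes Pf4 and Ppbp, the complex genes Gp1ba, Gp1bb, Gp9 and Gp5, the P-selectin gene Selp and the transcription factor gene Nfe2. The cells were long-term HSCs, sorted as LSKCD150+CD48-CD34- from c-Kit-enriched bone marrow of wild-type, untreated C57Bl6/J mice aged 8 weeks. They were permeabilised with digitonin and profiled by DOGMA-seq, which reads open chromatin (ATAC), RNA and antibody tags in the same cell. Sex and number of the mice are not given in the sources used here. There was 1 ATAC library and no second condition, so no value below has a replicate, no test was made, and every interval is an exact 95% interval that covers counting error alone.

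Platelets are shed by megakaryocytes, which arise from HSCs through progenitors and, for a part of the HSC pool, by a more direct route. Platelets adhere through the GPIb-IX-V complex, which binds von Willebrand factor, and through GPVI, which binds collagen. They aggregate through the integrin αIIbβ3 and release chemokines and P-selectin from their α-granules. The transcription factor NF-E2 is needed late in megakaryocyte maturation, and GATA, ETS, RUNX and TAL1 factors act at many genes of the lineage. PLT-HSCs are HSCs whose clones make mainly platelets, and MUL-HSCs are those whose clones make all blood lineages.

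Of 3757 called cells, the 3108 with more than 3000 fragments in peaks were used. They held 37137164 unique fragments, with a median of 11442 per cell and a range from 3970 to 194134. A promoter was the start of the principal transcript with 1 kb on either side. It was called open at 5 times the genome mean of 2-kb windows (30.97 fragments) or more, that is from 154.8 fragments. By that rule 7 of the 10 platelet promoters were open, beside 59.6% of all protein-coding promoters. The median over the 10 was 14.9 times the genome mean, beside 11.0 over all genes, and the 10 promoters together held 5112 fragments, 16.5 times the genome mean (16.1 to 17.0) on average, beside a mean of 25.3 over all genes. The members thus stood above all genes by the median and below them by the mean. The members ran from almost no fragments to more than 1000 at a promoter, and that spread is described first.

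The sequence next to the start is shown for 7 members that span this range, as the 150 bases before the start of the principal transcript, in the direction of the gene. For Itga2b and Nfe2, which have an earlier annotated 5′ end, the 150 bases before that end are shown instead. Coordinates are GRCm38 and the bases are those of the RefSeq assembly. Capitals mark matches, on either strand, to 5 short words. For GATA factors the word searched was AGATAA alone, so other forms of the GATA site, such as TGATAA, are not marked or counted. For ETS factors the word was AGGAAG, for RUNX factors TGTGGT, for NF-E2 or AP-1 factors TGAGTCA and for the E-box of TAL1 CAGATG. No match printed here overlaps another.
Itga2b upstream of the 5′ end of the gene, chr11:102470123-102470272, minus strand: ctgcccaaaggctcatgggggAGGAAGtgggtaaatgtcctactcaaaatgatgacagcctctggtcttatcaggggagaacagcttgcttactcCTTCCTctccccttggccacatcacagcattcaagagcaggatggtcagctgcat
Pf4 upstream, chr5:90772285-90772434, plus strand: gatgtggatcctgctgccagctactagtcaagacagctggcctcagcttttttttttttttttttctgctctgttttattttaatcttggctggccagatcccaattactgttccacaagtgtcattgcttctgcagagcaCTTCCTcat
Ppbp upstream, chr5:90768368-90768517, plus strand: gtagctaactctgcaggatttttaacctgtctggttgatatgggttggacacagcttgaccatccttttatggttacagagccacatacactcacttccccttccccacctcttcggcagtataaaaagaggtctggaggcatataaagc
Gp9 upstream, chr6:87777922-87778071, plus strand: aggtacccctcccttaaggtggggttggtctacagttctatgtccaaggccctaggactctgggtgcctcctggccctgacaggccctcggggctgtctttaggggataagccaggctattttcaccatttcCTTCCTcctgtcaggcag
Gp5 upstream, chr16:30310780-30310929, minus strand: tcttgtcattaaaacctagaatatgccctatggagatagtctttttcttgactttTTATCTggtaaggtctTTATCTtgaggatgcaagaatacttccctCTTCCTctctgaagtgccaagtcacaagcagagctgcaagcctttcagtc
Gp6 upstream, chr7:4397745-4397894, minus strand: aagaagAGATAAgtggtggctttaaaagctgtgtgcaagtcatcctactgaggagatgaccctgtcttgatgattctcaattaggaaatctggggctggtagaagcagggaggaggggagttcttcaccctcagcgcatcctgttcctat
Nfe2 upstream of the 5′ end of the gene, chr15:103258404-103258553, minus strand: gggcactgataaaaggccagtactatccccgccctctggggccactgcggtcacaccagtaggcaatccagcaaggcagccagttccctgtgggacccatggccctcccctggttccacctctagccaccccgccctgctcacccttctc
Over the 150 bases upstream of the principal starts of all 21755 genes, 4.73% held AGATAA, 19.3% AGGAAG, 7.69% TGTGGT, 2.42% TGAGTCA and 7.18% CAGATG. The ETS word stood in the windows of Itga2b (2 matches), Pf4 (1), Gp9 (1) and Gp5 (1), while Gp5 also held 2 matches to the GATA word. The window of Gp6, the member with the fewest fragments, held 1 GATA word, and those of Ppbp and Nfe2 held none of the 5 words. Of the windows not printed, that of Selp, whose promoter was not open, held 1 ETS word, that of Gp1ba held 1, and that of Gp1bb, whose promoter was open, held none but 1 E-box word. A match is a description of the letters and not a bound site.

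Itga2b encodes the αIIb chain (CD41), the partner of β3 in the fibrinogen receptor of platelets. Its promoter (chr11, start at base 102469883, minus strand) was the most accessible of the 10 by the principal start, with 1178 fragments, 38.0 times the genome mean (35.9 to 40.3), at the 75.8th percentile of all promoters. A fragment lay over it in 807 of the 3108 cells, or 26.0% (24.4 to 27.5), and 263 of them held more than 1. The share of cells rose with depth, from 17.1% in the lower tertile of fragments per cell through 25.4% to 35.4% in the upper tertile.

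Gp6 encodes the collagen receptor GPVI. Its promoter (chr7, start at base 4397744, minus strand) stood at the other end, with 7 fragments in 7 cells, 0.226 times the genome mean (0.0909 to 0.466). Across the gene and 20 kb on either side, 73.8 kb in all, 97 fragments were counted, 0.0932 times the genome mean per kb. No 500-bp bin there held more than 4 fragments.

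The 2 chemokine genes have starts 3.92 kb apart on chromosome 5, both on the plus strand, and only the downstream of the pair had an open promoter. Pf4 encodes platelet factor 4 and Ppbp encodes pro-platelet basic protein, both stored in α-granules. The Pf4 promoter (start at base 90772435) held 966 fragments, 31.2 times the genome mean (29.3 to 33.2), and was open in 703 cells, 22.6%. The Ppbp promoter (start at base 90768518) held 37 fragments, 1.19 times the genome mean (0.841 to 1.65), in 36 cells, 1.16%. The windows do not overlap, and their intervals are far apart.

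The GPIb-IX-V complex is built from the products of 4 genes on 3 chromosomes, and all 4 promoters were open. Gp1ba, whose product carries the binding site for von Willebrand factor, held 868 fragments at its promoter (chr11, start at base 70639122), 28.0 times the genome mean (26.2 to 29.96), in 20.9% of cells. Gp9 (chr6, start at base 87778072) held 729, 23.5 times the mean (21.9 to 25.3), in 16.7% of cells. Gp1bb (chr16, start at base 18622403) held 335 and Gp5 (chr16, start at base 30310779) held 329, 10.8 times (9.69 to 12.04) and 10.6 times (9.51 to 11.8). The promoters of Gp1ba and Gp9 were thus above the median of all genes, and those of Gp1bb and Gp5 lay at it, at the 49.8th and 49.5th percentiles.

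Selp encodes P-selectin, which moves from granules to the platelet surface on activation. Its promoter (chr1, start at base 164115264) held 74 fragments, 2.39 times the genome mean (1.88 to 3.00), in 2.28% of cells, which is under the threshold. Nfe2 encodes the p45 subunit of NF-E2, and the start of its principal transcript (chr15, base 103255439) held 589 fragments, 19.02 times the mean (17.5 to 20.6), in 15.5% of cells. The gene has an earlier annotated 5′ end 2964 bp upstream, and the same window there held 2621 fragments, 84.6 times the mean. Which start is taken therefore moved the count at Nfe2 by 4.45 times, whereas for Itga2b, with starts 239 bp apart, the count was 1178 at either. By the 5′ end of the gene Nfe2 and not Itga2b was the highest of the 10.

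In order of promoter fold at the principal start the members ran Itga2b, Pf4, Gp1ba, Gp9, Nfe2, Gp1bb, Gp5, Selp, Ppbp and Gp6. The intervals of Pf4 and Gp1ba overlapped, as did those of Gp1bb and Gp5, so their order is not resolved by counting error. Fragments under 150 bp, the class that spans no nucleosome, made up 56.8% of fragments over all promoters, and their median share over single open promoters was 51.6%. They made up 59.4% at Gp1ba, 58.4% at Itga2b, 57.0% at Nfe2 and 56.5% at Pf4, 49.9% at Gp9, 40.1% at Gp5 and 27.8% at Gp1bb. At the promoters that were not open the share was 24.3% of the 74 fragments at Selp and 13.5% of the 37 at Ppbp, and the 7 fragments at Gp6 were too few to compare.

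The same windows were read in barcodes outside the cells used, as a background. In the 601292 barcodes not called as cells, the 10 promoters held 301 of 3525361 fragments, 10.3 times the genome mean of those barcodes (9.15 to 11.5), beside 16.5 in the cells used. In the 649 called cells under the limit on fragments in peaks, the fold was 13.1 (11.0 to 15.5). Itga2b led outside the called cells too, with 69 fragments, while Selp held 1, Ppbp 2 and Gp6 4.

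**Figure D1:**
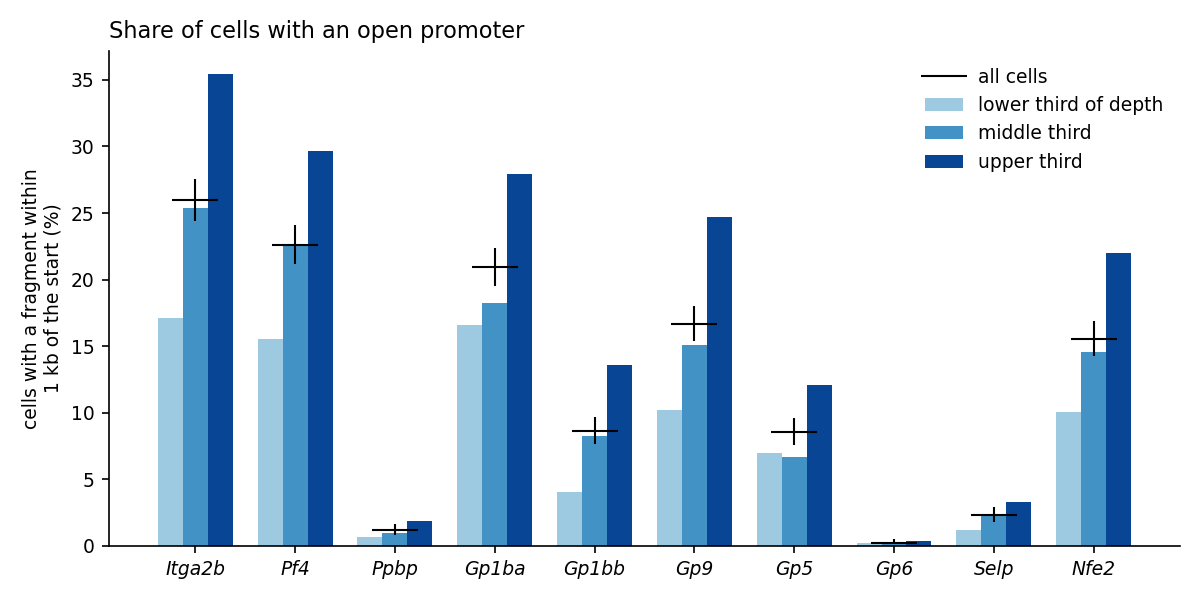
Share of cells, in percent, with at least 1 fragment within 1 kb of the start of each gene, in the lower, middle and upper tertile of fragments per cell (bars, 1036 cells each) and in all 3108 cells (black line, with the exact 95% binomial interval). The share was highest at Itga2b, 26.0% of all cells, and lowest at Gp6, 0.225%.

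Each locus, the gene body with 20 kb on either side, was then read in 500-bp bins by fragment midpoint. A bin was open at 5 times the genome mean of 7.05 fragments or more. The 10 loci held 949 different bins, with 77 shared between Pf4 and Ppbp, and 144 of them (15.2%) were open, beside 3.84% of the bins of all loci. Of the open bins, 73 (50.7%) lay more than 1 kb from the start of any protein-coding gene, beside 62.2% of the open bins of all loci. Some of the strongest bins lay at starts of neighbouring genes.

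The 150 bases with the most fragment ends are shown for 3 open sites that lie away from the promoter of their gene, with the same words in capitals. The exon or intron named is that of the whole 500-bp bin and was not read for the 150 bases.
Itga2b, exon 4 and exon 5, chr11:102467129-102467278, minus strand: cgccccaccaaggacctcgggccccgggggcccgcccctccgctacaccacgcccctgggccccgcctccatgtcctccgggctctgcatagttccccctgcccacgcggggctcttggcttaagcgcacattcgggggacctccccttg
Selp, intron after exon 8, chr1:164135538-164135687, plus strand: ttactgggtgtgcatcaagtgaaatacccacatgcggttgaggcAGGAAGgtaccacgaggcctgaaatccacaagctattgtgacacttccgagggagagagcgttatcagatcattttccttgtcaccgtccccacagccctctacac
Gp9, upstream site, chr6:87776008-87776157, plus strand: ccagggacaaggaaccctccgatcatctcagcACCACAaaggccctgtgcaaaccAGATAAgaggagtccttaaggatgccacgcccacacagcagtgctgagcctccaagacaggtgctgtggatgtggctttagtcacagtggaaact
The sites of Itga2b and Selp are the strongest bins of their loci, and that of Gp9 is the strongest of its own, away from starts of protein-coding genes. The Itga2b site held none of the words and was 73.3% G or C, the Selp site held 1 ETS word, and the Gp9 site held 1 GATA and 1 RUNX word. At the centres of the 67945 open bins of all loci away from starts, windows of 150 bases held AGATAA in 6.64%, AGGAAG in 23.4%, TGTGGT in 12.98%, TGAGTCA in 3.22% and CAGATG in 11.4%.

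The strongest bin of the Itga2b locus was not its promoter. The bin at 2.63 kb into the gene (chr11:102467001-102467500), over exon 4 and exon 5, held 1739 fragments, 247 times the genome mean (235 to 259). The strongest promoter bin held 825, so that the bin inside the gene was 2.11 times as high. Among the strongest bins away from starts of all loci, it stood at the 99.0th percentile. Shorter annotated transcripts begin nearby, with 2 starts within 1 kb of the printed window, and these data do not tell a start from another kind of open site. A bin 22.1 kb from the start, within 1 kb of the start of Fam171a2, held 592 fragments. A further open bin over exon 27 (chr11:102456001-102456500) held 479 fragments, and 25 of the 115 bins were open.

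At Selp the strongest bins lay inside the gene, while the promoter was under the threshold. The bin in the intron after exon 8 (chr1:164135501-164136000), 20.5 kb from the start, held 706 fragments, 100.1 times the genome mean (92.9 to 108). It was 15.02 times as high as the strongest promoter bin, which held 47 and was itself open by the bin rule. The neighbouring bin held 338, and a second site in the intron after exon 9 (chr1:164138501-164139000) held 454. Of the 151 bins of this locus 10 were open, and 5 of these lay in the 2 introns. Outside the gene, a pair of bins about 5 kb upstream held 111 and 101 fragments, and 90 and 55 lay in bins at the start of F5.

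Gp9 had its strongest bin 1.82 kb upstream of the start (chr6:87776001-87776500), with 337 fragments beside 311 in the strongest promoter bin, counts whose intervals overlap. An annotated transcript start lies within 1 kb of the printed window of this site. Further upstream bins held 176 and 194 fragments, and 17 of 84 bins were open. At Gp5 the coding part of exon 2 (chr16:30308501-30309000) held 237 fragments, 1.45 times the 164 of the strongest promoter bin. The open bins of Gp5 ran without a gap from 0.472 kb before the start to 2.53 kb after it, and these 7 were the open bins of its locus.

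At Gp1bb the strongest bin, with 773 fragments, lay 4.35 kb upstream within 1 kb of the start of Gm49601, and 211 fragments marked the start of Sept5 further up. A bin 4.65 kb downstream of the start (chr16:18617501-18618000), with no annotated start within 1 kb of its strongest stretch, held 413 fragments, 2.95 times the strongest promoter bin. At Gp1ba the strongest bin of the locus held 2196 fragments at the shared starts of Rnf167 and Slc25a11, 8.13 kb downstream, and 765 lay in a bin at the start of Pfn1. Its own strongest promoter bin held 445. The density of the Gp1ba locus, 12.7 times the genome mean per kb, includes these neighbours.

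Nfe2 had the densest locus of the 10, 15.8 times the genome mean per kb, and 93.2% of cells held a fragment there. Its strongest bins lay at the starts of Cbx5 and Hnrnpa1 (1681 fragments) and of Copz1 (1668). The bin that holds its own 5′ end held 1285 fragments and the next bin upstream 1198, and the promoter bin of the principal transcript 399. A bin 4.81 kb upstream of the principal start (chr15:103260001-103260500) held 339 fragments, and a bin in the intron after exon 2 held 245.

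At the chemokine pair the strongest bin was the Pf4 promoter, with 503 fragments, and the strongest bin at the Ppbp start held 24. Bins at the starts of Cxcl3 and Cxcl5, the neighbouring chemokine genes, held up to 202 and 66 fragments. The strongest bin away from starts held 79, at the 39.7th percentile of all loci. The Pf4 promoter window held 966 of the 2001 fragments of its locus.

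**Figure D2:**
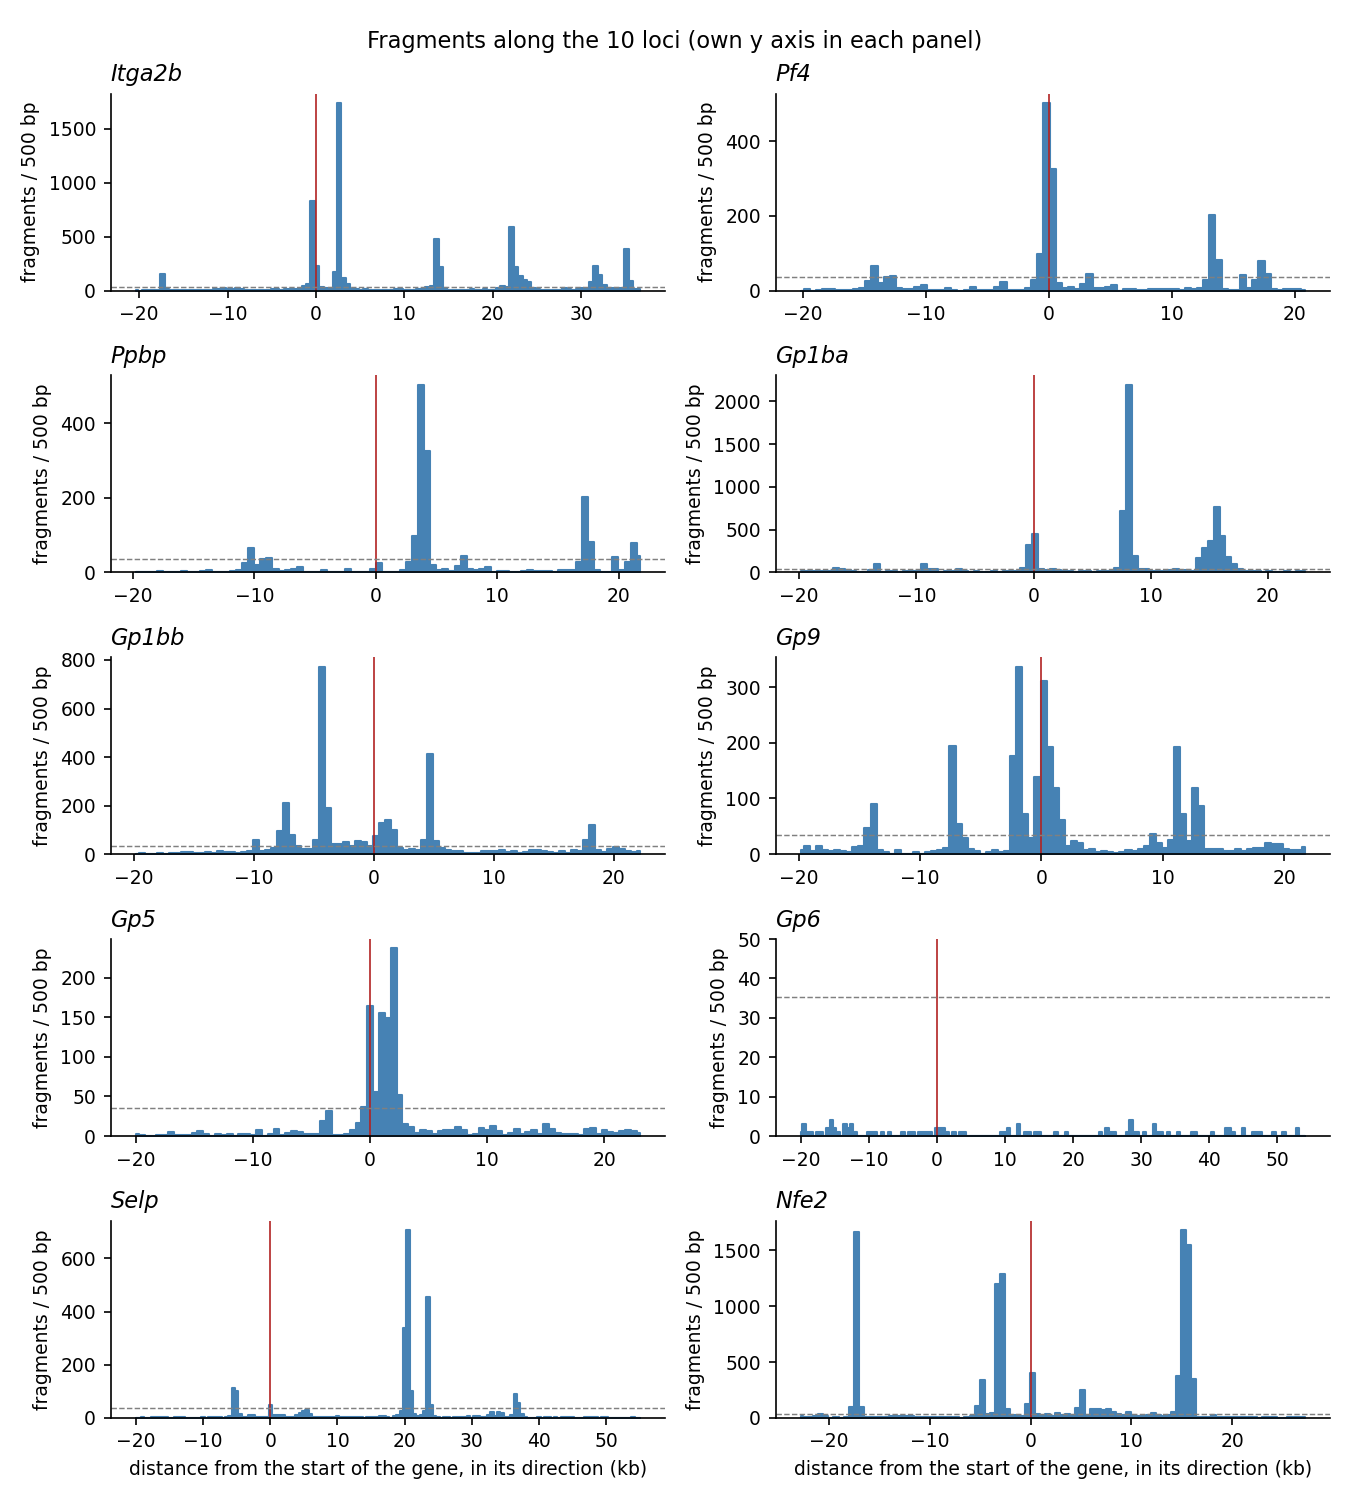
Fragments per 500-bp bin along each locus against the distance from the start of the gene in its direction, in kb, with the start in red and the open threshold of 35.25 fragments as a dashed line. The y axis differs between panels, and it ends at 50 for Gp6. The highest bin lies inside the gene for Itga2b (1739 fragments), Gp5 (237) and Selp (706), at the promoter for Pf4 (503), and no bin passes the threshold at Gp6.

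The members were set beside 80 other genes with roles in platelets or megakaryocytes, listed by role, and beside markers of other blood cells. The lists were not matched for how widely their genes are expressed in other cells, so their shares are not like for like. Of the 80, 63 (78.8%) had an open promoter, beside 59.6% of all genes, the share against which each count here is to be read. Transcription factors were open in 13 of 15 cases and had the highest median of the lists, 50.1 times the genome mean. The highest were Zfpm1, the GATA cofactor FOG-1, at 241 times, Nfe2l2 at 123 and the NF-E2 partner Mafg at 94.2, and the lowest were Mef2c at 0.194 and Gata1 at 1.91.

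Receptors and adhesion genes, the class closest to most of the members, were open in 18 of 24 (75.0%), with a median of 13.5. The thrombin receptor gene F2rl3 (44.2), Itgb1 (40.7) and Itga6 (35.0) were the highest, and Cd36 (0.226) and Cd226 (0.581) the lowest. Granule, secretion and cytoskeleton genes were open in 15 of 22 (68.2%), led by Myh9 (141), Vamp8 (75.8) and Vcl (57.8). Srgn stood at 0.775, and at Mmrn1, the gene of the factor V carrier multimerin, 0 fragments were counted, which allows up to 0.119 times the genome mean. Signalling genes were open in 17 of 19, from Rap1b (105), Rasgrp2 (93.1) and Stim1 (83.2) down to Arhgap6 (3.81) and Mylk (1.68).

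HSC markers were open in 6 of 8, with Hlf at 59.6, Mecom at 56.4 and Kit at 52.1, while Slamf1 (4.26) and Ly6a (1.68) were under the threshold although the gate selects cells with both proteins. Of the genes of other lineages, 2 of 6 were open for B cells, 0 of 6 for T cells, 1 of 9 for neutrophil granules and 3 of 8 for erythroid cells. Medians of these 4 lists lay between 0.872 and 3.07 times the genome mean. T lineage genes ran from Lck at 4.52 and Cd3d and Cd3g, both at 1.13, down to Cd3e at 0.484 and Cd8a at 0.291. Neutrophil genes were led by Prtn3 (5.20), Ltf (2.81) and Elane (2.29), with S100a9 and Ctsg lowest at 0.0969. B lineage genes were led by Ebf1 (10.1), Cd79b (7.59) and Pax5 (4.04), with Cd79a at 1.91 and Ms4a1 at 0.355. Erythroid genes were led by Epor (18.3) and Klf1 (11.3), with Alas2 at 0.291 and Hba-a1 at 0.129. Gp6, Ppbp, Selp, Gp5 and Gp1bb lay within the range of these genes of other lineages, and Itga2b, Pf4, Gp1ba, Gp9 and Nfe2 lay above the highest of them, Epor, though the intervals of Nfe2 and Epor overlap.

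**Figure D3:**
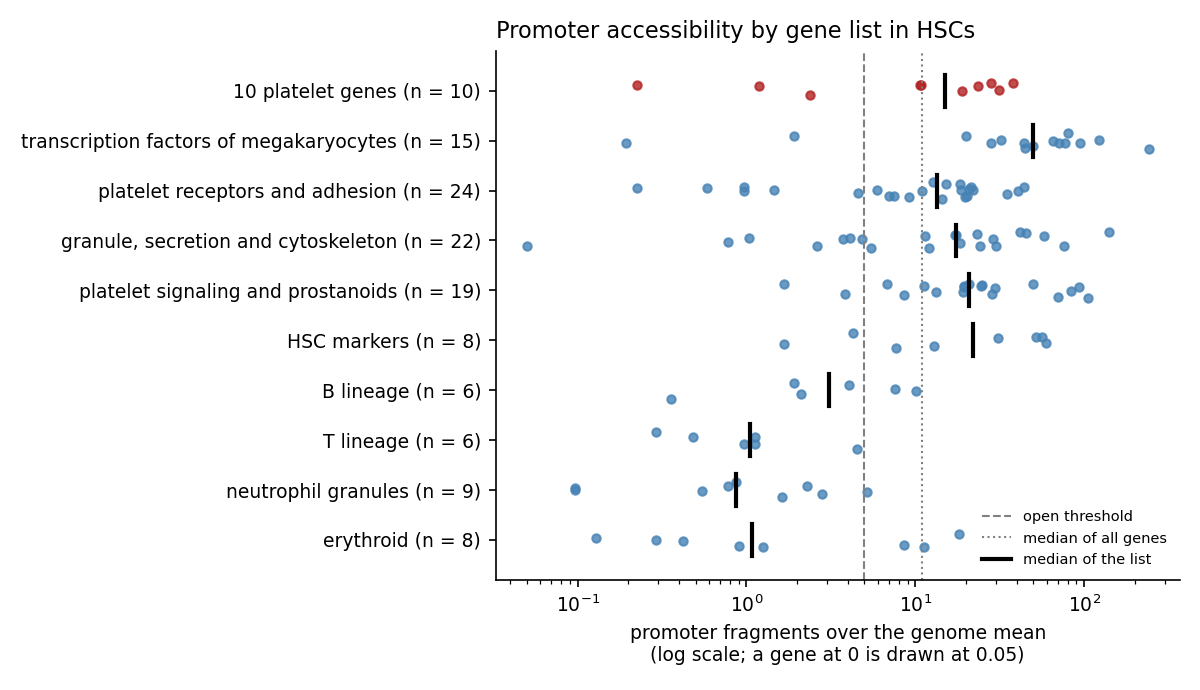
Promoter fragments over the genome mean of 2-kb windows, on a log axis, for the 10 platelet genes (red) and for each list (blue), 1 point a gene, with the list's median as a black bar, the open threshold of 5 as a dashed line and the median of all genes (11.0) as a dotted line. A gene with 0 fragments is drawn at 0.05. Points of the platelet genes span 0.226 to 38.0, and 7 lie right of the threshold.

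Whether the platelet promoters opened together in the same cells was examined over the 42 pairs of members on different chromosomes. Cells were put in 20 strata of fragments per cell, and the number of cells with both promoters open was compared with that expected if the 2 were independent in each stratum. In all, 2134 joint openings were observed and 2023 were expected, a ratio of 1.05 (1.01 to 1.10), beside 1.01 for pairs of all genes. The interval takes joint openings as independent, which openings in 1 cell are not, so it is too narrow. Without the 5% of cells with the most fragments the ratio was 1.04 (0.991 to 1.09), with an interval that holds 1.

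Of the 30 pairs expected in at least 5 cells, 19 had a ratio above 1, beside 54.2% of such pairs of all genes, and no pair's interval left out 1. Itga2b and Pf4 were both open in 210 cells, with 203 expected. Gp9 and Nfe2 were both open in 113 cells with 94.6 expected, a ratio of 1.19 (0.984 to 1.44), and Itga2b and Gp5 in 68 with 77.2 expected, a ratio of 0.881 (0.684 to 1.12). By member, ratios with the others ran from 0.927 at Selp to 1.13 at Gp6, the latter from 14 joint openings. The pair of neighbours Pf4 and Ppbp was open together in 10 cells, with 10.0 expected.

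Cells held 1.23 open platelet promoters on average. None was open in 917 cells, with 886 expected, and 5 or more were open in 28, with 20.9 expected. In 8 cells 6 or more were open, with 3.08 expected, and the highest number was 7. All 8 belonged to the deepest stratum, of 155 cells, in which depth itself ran from 19738 to 194134 fragments, and their median was 31836. The part of depth within that stratum in this excess was not tested. Read over whole loci rather than promoters, the ratio was 1.00 (0.991 to 1.01), with 36242 joint openings observed and 36188 expected. A fragment lay over the locus in 93.2% of cells at Nfe2, 85.1% at Gp1ba and 80.2% at Itga2b. Such shares leave the ratio of a pair little room to move from 1. At the other loci the share was lower, from 60.5% at Gp1bb to 2.83% at Gp6. The loci also include starts of neighbouring genes, and the part of either in the ratio was not tested.

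**Figure D4:**
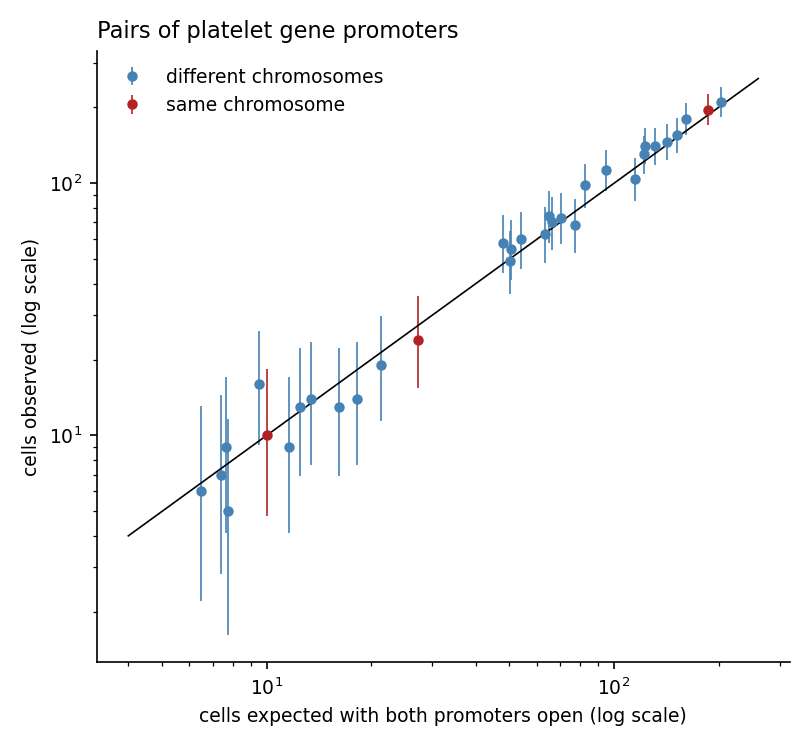
Cells observed with both promoters of a pair open against cells expected from the depth strata, both on log axes, for pairs expected in 5 cells or more, with exact 95% Poisson intervals. Pairs on different chromosomes are blue and pairs on the same chromosome red, and the line marks equality. The points follow the line, with Itga2b and Pf4 at 210 observed and 203 expected.

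To ask whether these genes were more open in cells that lean to the PLT-HSC side, cells were ranked by clone genes that do not include the members. These are the genes listed in the study as differing between PLT-HSC and MUL-HSC clones, of which 65 on the PLT and 58 on the MUL side were found. A cell's lean was the PLT share of its fragments over their bodies and 2 kb upstream, and the upper and lower tertiles of 1036 cells are called PLT-leaning and MUL-leaning. A cell had a median of 72 such fragments, so the lean of a single cell is imprecise, and no cell is thereby shown to be a PLT-HSC or a MUL-HSC. The lean also differs from the classes of the study, which rest on ATAC signatures of clones in clusters of non-cycling cells. Cycling cells were not set apart here, and the lean was not compared with those classes.

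Over the 10 loci, accessibility per fragment in PLT-leaning cells was 0.962 times that in MUL-leaning cells (0.939 to 0.986), beside a median of 0.995 over the loci of all genes. Of the 10 loci 0 were higher in PLT-leaning cells, beside 46.7% of all loci, although no single locus had an interval that left out 1 and the loci of Pf4 and Ppbp largely overlap. That share is over loci with at least 100 fragments in both tertiles together, and the Gp6 locus, with 26 and 41, is under that limit. The ratio was 0.975 at Itga2b, 0.964 at Nfe2, 0.968 at Gp1ba and 0.924 at Gp5. With cells thinned to 3000 fragments the ratio turned to 1.01 (0.966 to 1.06) in the planned draw. It was 0.981 (0.936 to 1.03) and 0.984 (0.939 to 1.03) in 2 draws added after the data were seen, which kept the direction with intervals that hold 1.

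The difference was larger at the promoters, where it was 0.857 (0.800 to 0.918) over the 10, with 1506 fragments in PLT-leaning and 1824 in MUL-leaning cells. Among the 10 promoters 8 were lower in PLT-leaning cells, while those of Selp (24 against 23 fragments) and Gp6 (3 against 2) were higher. All 7 open promoters of the members were lower in PLT-leaning cells, beside 50.3% of open promoters of all genes. The interval left out 1 at 3 of these 7, beside 5.43% of open promoters of all genes with an interval under 1. These were Itga2b, with 339 against 422 fragments and a ratio of 0.834 (0.721 to 0.965), Gp1ba, with 259 against 318 and 0.846 (0.715 to 1.00, the upper bound just below 1), and Gp1bb, with 92 against 131 and 0.729 (0.552 to 0.959). Pf4 stood at 0.893, Gp9 at 0.871, Gp5 at 0.811 and Nfe2 at 0.958, each with an interval that holds 1. Over the 80 other platelet genes the promoter ratio was 0.989 (0.972 to 1.01), and 31 of their 63 open promoters were lower.

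With cells thinned to 3000 fragments the promoter ratio was 0.798, 0.867 and 1.02 in 3 draws, so its direction did not hold in every draw. Between the PLT-leaning and MUL-leaning cells the median depth was 11232 and 11450 fragments, the share of fragments in promoter windows 46.1% and 46.1%, the median share in peaks 71.1% and 70.4%, and the median RNA count 3742 and 3915 UMIs. The part of these in the ratios was not tested.

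**Figure D5:**
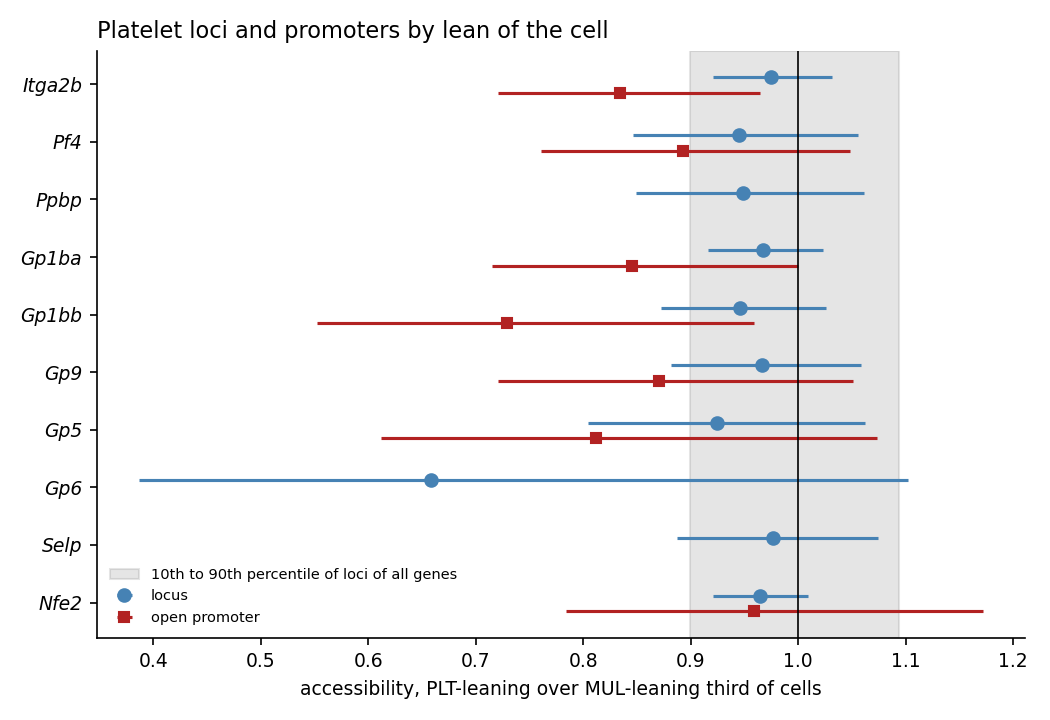
Accessibility in the PLT-leaning over the MUL-leaning tertile of cells, per fragment, for each locus (blue circles) and for each of the 7 open promoters (red squares), with exact 95% intervals for counting error. The black line marks 1 and the grey band the 10th to 90th percentile of the loci of all genes (0.899 to 1.09). Points of the loci and of the open promoters lie left of 1, from 0.658 at the Gp6 locus, which rests on 26 and 41 fragments, to 0.977 at the Selp locus.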

How the data were processed

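1 ATAC library of HSCs was analysed. Per the file headers, reads were mapped to mm10 by the authors in Cell Ranger ARC 2.0.2, which collapses duplicate read pairs. They deposited raw counts: fragments in peaks, fragments and UMIs per barcode, a flag for called cells, and the position of each unique fragment with its count of read pairs. Nothing deposited was normalized. Of 42000180 fragments, 60494 on other contigs were left out.

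Fragments were counted over windows that they overlap by at least 1 base, and in bins by midpoint. Starts are those of the APPRIS principal transcript in GENCODE vM21, on GRCm38. Fold is relative to the mean window of the genome. Poisson and binomial intervals are exact. Loci with under 100 fragments in the tertiles together, clone genes and their neighbourhood stayed out of the background for PLT lean. Doublets were not called, and the 5% of cells with the most fragments were left out as an alternative. Python 3.11.15, numpy 2.4.6, scipy 1.17.1, pandas 2.3.3 and matplotlib 3.10.9 were used, and scripts were tested on simulated data.

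The members and lists were chosen with earlier results of these data known. Named are all 10 members, the strongest bin and further open bins of each locus, and the 3 highest and 2 lowest promoters of each list, of which 1 is not reported here. Bins shown for their distance from starts, beyond 2 per locus, and the open sites printed were chosen after their values were seen. Alternatives covered the cell filter, depth, fragment length, start, window, threshold, bin size and strata. RNA counts per gene, antibody tags and older mice were not analysed here.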

Additional observations from a re-analysis of the deposited data

How the results depend on the processing

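The 7 open members stayed 7 under all 10 alternatives tried, and the count of open genes among the 80 others stayed within 1.5 times 63. The pooled promoter fold of 16.5 became 20.1 with fragments under 150 bp, 23.1 at the 5′ end of the gene, 25.5 within 500 bp of the start and 17.5 with cut ends counted. The 144 open bins became 93 at a 10-fold threshold and 83 with 1000-bp bins, which hold fewer bins by construction. Thinning cells to 3000 fragments gave co-opening ratios of 1.11 (0.961 to 1.28) for promoters and 0.991 for loci. The promoter ratio also had an interval that holds 1 at the 5′ end of the gene, 1.03 (0.998 to 1.07). The PLT-leaning over MUL-leaning ratio of 0.962 was 0.927 for the body with 5 kb on either side and 0.857 for promoters. It turned to 1.01 in the planned draw of cells thinned to 3000 fragments, and was 0.981 and 0.984 in 2 added draws. For promoters, alternatives added after the data were seen gave 0.877 without the 5% of cells with the most fragments, and 0.798, 0.867 and 1.02 in 3 thinned draws. The causes were not tested. Limits of 15% of fragments in peaks and a nucleosome signal of 4 removed no cell. No paired analysis was possible because there was 1 library. The promoters that were not open rest on few fragments, 7 at Gp6, 37 at Ppbp and 74 at Selp, so depth limits what can be said of them.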
